A study of Mus musculus with 18 samples.

Results

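The 44 genes described here encode the machinery that copies DNA, out of 21938 protein-coding genes of the mouse annotation. They were taken by symbol: every gene named Mcm, Orc, Rfc, Gins, Pola, Pold, Pole or Prim with a number, Pole itself, and Pcna, Cdc6, Cdt1, Cdc45, Rpa1, Rpa2 and Rpa3, without Mcmbp and the Poldip genes. The symbol rule also took Mcm3ap, which is named after its binding to MCM3 and is no subunit of this machinery. The rule names symbols and no measured value, but the list was proposed with earlier results of these data known. None of the genes lies on chromosome 18.

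ChIP-seq for 2 histone marks was done in bone marrow cells of adult C57BL6 mice, male by the study's methods, with no treatment or allele named. H3K4me3 marks active promoters, and H3K27ac marks active promoters and enhancers. Each mark had 2 libraries of erythroblasts (ERY), sorted as Ter119+, CD44+ and FSCLow, and 2 libraries labelled iMK, immature megakaryocytes, sorted as CD41+ and CD61+ but Ter119-, Sca1- and cKit-. Both sorts also left out cells with the lymphoid proteins CD4, CD8, IL7Ra and CD45R or the myeloid proteins CD11b and Ly6g. Every library was given as a list of broad peaks, and the numbers 1 and 2 given to replicates follow the accession order and pair no libraries.

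Before a cell divides, the origin recognition complex (ORC) marks the sites where copying will start, and Cdc6 and Cdt1 load the ring-shaped MCM helicase there. Cdc45 and the GINS complex turn the loaded helicase on, RPA coats the single strands, primase and polymerase alpha lay the first primers, and polymerases epsilon and delta, held to DNA by the sliding clamp PCNA and its loader RFC, copy the strands. Many of these genes are transcribed under E2F factors in dividing cells. Erythroblasts divide repeatedly before they lose their nucleus, and megakaryocytes go on copying their DNA without dividing.

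The promoters of 37 of the 44 genes were found in RefSeq on GRCm38.p6 (not Mcm4, Gins1, Gins2, Gins4, Prim2, Pole or Rfc2). The 250 bases before the start are shown for Mcm2 (minus strand, chr6:88898781-88899030), Mcm3 (minus strand, chr1:20820313-20820562), Mcm5 (plus strand, chr8:75109259-75109508) and Mcm6 (minus strand, chr1:128359706-128359955), since the helicase genes run through all comparisons below and these are the 4 whose stretch holds no annotated exon. They are written 5′ to 3′ towards the gene. Capitals mark CCAAT boxes (CCAAT) and matches to E2F sites (TTTCCCGC, TTTCGCGC, TTTGGCGC or TTTGCCGC), on either strand.
Mcm2: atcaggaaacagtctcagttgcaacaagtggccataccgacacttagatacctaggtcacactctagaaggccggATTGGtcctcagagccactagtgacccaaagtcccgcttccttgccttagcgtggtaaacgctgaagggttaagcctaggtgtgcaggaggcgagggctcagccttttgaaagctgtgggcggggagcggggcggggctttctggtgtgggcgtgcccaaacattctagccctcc
Mcm3: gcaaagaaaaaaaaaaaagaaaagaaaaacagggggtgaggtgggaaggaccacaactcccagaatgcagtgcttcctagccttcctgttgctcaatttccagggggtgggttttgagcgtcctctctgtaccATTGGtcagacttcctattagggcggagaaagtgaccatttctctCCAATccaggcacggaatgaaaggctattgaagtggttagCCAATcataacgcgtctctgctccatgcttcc
Mcm5: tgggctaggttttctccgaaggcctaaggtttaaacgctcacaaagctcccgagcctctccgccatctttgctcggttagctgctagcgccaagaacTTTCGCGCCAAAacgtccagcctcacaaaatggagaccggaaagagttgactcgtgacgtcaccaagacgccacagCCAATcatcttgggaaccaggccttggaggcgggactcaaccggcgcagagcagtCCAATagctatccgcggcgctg
Mcm6: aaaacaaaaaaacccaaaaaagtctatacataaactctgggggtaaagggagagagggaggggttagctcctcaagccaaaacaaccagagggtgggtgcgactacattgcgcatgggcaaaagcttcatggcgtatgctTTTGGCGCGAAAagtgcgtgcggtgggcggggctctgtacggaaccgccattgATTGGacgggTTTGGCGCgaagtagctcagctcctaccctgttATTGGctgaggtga
All 4 stretches held a CCAAT box. Mcm6 held 3 E2F matches and Mcm5 held 2, overlapping ones in both, and Mcm2 and Mcm3 held none. Over the 37 promoters, an E2F match was found in 10, against 2.46% of 16521 promoters of the same length. The 10 were those of Orc1, Orc3, Cdc6, Mcm5, Mcm6, Mcm7, Gins3, Pola1, Pole4 and Rfc3, which spread over origin recognition, licensing, helicase, GINS, polymerase and clamp loader genes. A CCAAT box was found in 22 (59.5% against 36.0%), a GC box (GGGCGG) in 27 (73.0% against 44.7%), and a CHR element (TTTGAA or TTCGAA) in 5 (13.5% against 15.5%). A GATA match (AGATAA or TGATAA) was found in 2 (5.4% against 14.5%). The stretches were rich in CpG: 27 of 37 had an observed over expected CpG ratio above 0.75, against 31.8% of all, and their median GC content was 63.2% against 56.0%. These are letter matches, described without a test.

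The H3K27ac lists held 21768 to 25750 peaks and the H3K4me3 lists 6275 to 13222. A peak list does not give the read depth behind it, so a promoter without a peak is not one shown to lack the mark, and a share of cells with the mark cannot be told apart from the amount per cell. H3K27ac promoter peaks were called at 8 of 8 erythroblast marker genes in both ERY libraries and at 3 of 8 in both libraries labelled iMK, and their summed locus coverage was 416 to 460 percentage points in ERY against 40.1 to 42.2 in iMK. Of 7 megakaryocyte markers, 4 were called in each ERY library and 2 and 3 in the libraries labelled iMK. Their summed coverage was 160.4 to 168 in ERY against 48.0 to 66.7 in iMK. Itga2b, which encodes CD41, Gp9, Gp1ba and Pf4 had no H3K27ac promoter peak in either library labelled iMK. Itgb3, which encodes CD61, and Fli1 had a peak in both of those libraries and in neither ERY library. Pf4 had no peak in ERY either. Of 8 myeloid markers, 0 were called in ERY, against 7 in either iMK list (3.88 to 13.9 against 197 to 291), and of 8 lymphoid markers 0 against 2 and 3 (17.0 to 27.5 against 31.8 to 43.6). In H3K4me3, erythroblast promoters were called at 7 and 6 of 8 in ERY and at 3 and 4 in iMK, and myeloid ones at 0 in ERY and at 3 and 7 in iMK. Megakaryocyte promoters were called in H3K4me3 at 0 of 7 in both ERY libraries and at 2 and 4 in the libraries labelled iMK, Itga2b and Vwf being called in iMK replicate 2. Their summed H3K4me3 coverage overlapped (19.2 and 7.86 in ERY against 13.7 and 53.1 in iMK), so for this list the calls went the opposite way from H3K27ac. Lymphoid promoters were called in H3K4me3 at 0 of 8 in 3 libraries and at 2 in iMK replicate 2. The part of these marker differences in the comparisons below was not tested.

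Nearly all replication genes carried H3K27ac at the promoter (any annotated start with 1 kb on each side) in both cell types. The promoter was called in all 4 H3K27ac libraries for 43 of the 44, against 36.0% of all protein-coding genes. Prim1, the catalytic subunit of primase, was the 1 exception: its promoter carried peaks of 2600 and 2400 bp in ERY and none in the libraries labelled iMK. That made 1 gene called in ERY alone (2.17% of all genes were) and 0 called in iMK alone (8.56% were), in part of the libraries (6.11%) or in none (47.2%). The single lists called 44, 44, 43 and 43 of the members in the order ERY 1, ERY 2, iMK 1 and iMK 2, against 41.7%, 39.4%, 47.6% and 49.0% of all genes. Prim1 also lacked an H3K4me3 peak in iMK replicate 1.

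**Figure D1:**
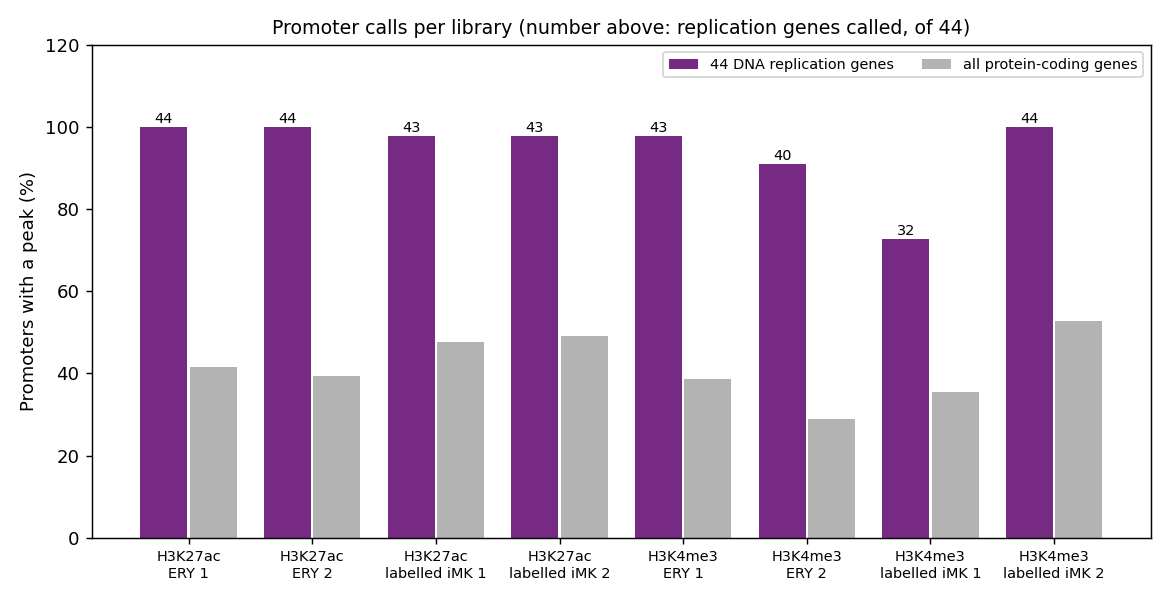
Percent of promoters with a peak in each of the 8 libraries, for the 44 DNA replication genes (purple, with the number called above each bar) and for all 21938 protein-coding genes (grey). The replication genes stand between 97.7% and 100% in H3K27ac and, in H3K4me3, between 72.7% in iMK replicate 1 and 100% in iMK replicate 2.

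At 14 of these promoters the H3K27ac peak was wider in ERY, and at 0 in iMK. The median width over the members called was 3600 and 3000 bp in the ERY libraries and 1800 and 2000 bp in those labelled iMK, against 2800, 2600, 1800 and 2000 bp over all called promoters. The 14 passed at an adjusted p of 0.05 in limma, of 43 genes with a width in every library (18.5% of the 7897 genes tested were wider in ERY and 2.6% in iMK). The median difference was 0.85 on the log2 scale (1.80-fold) over the members and 0.39 (1.31-fold) over all genes tested. Both ERY widths exceeded both iMK widths for 30 of the 43 (49.2% of all genes) and lay below both for 0 (13.1%). Under quantile normalization, 7 of the 14 calls were kept, while those of Orc1, Mcm3, Mcm7, Mcm9, Pold3, Pcna and Rpa1 were lost. This normalization moved the median of all genes from 0.39 to -0.04, and the median of the members was 0.45. With any 1 of the 4 libraries left out, 0 members and 0 other genes passed in limma, while 16 to 22 members and 2191 to 2875 of all genes had an unadjusted p under 0.05.

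**Figure D2:**
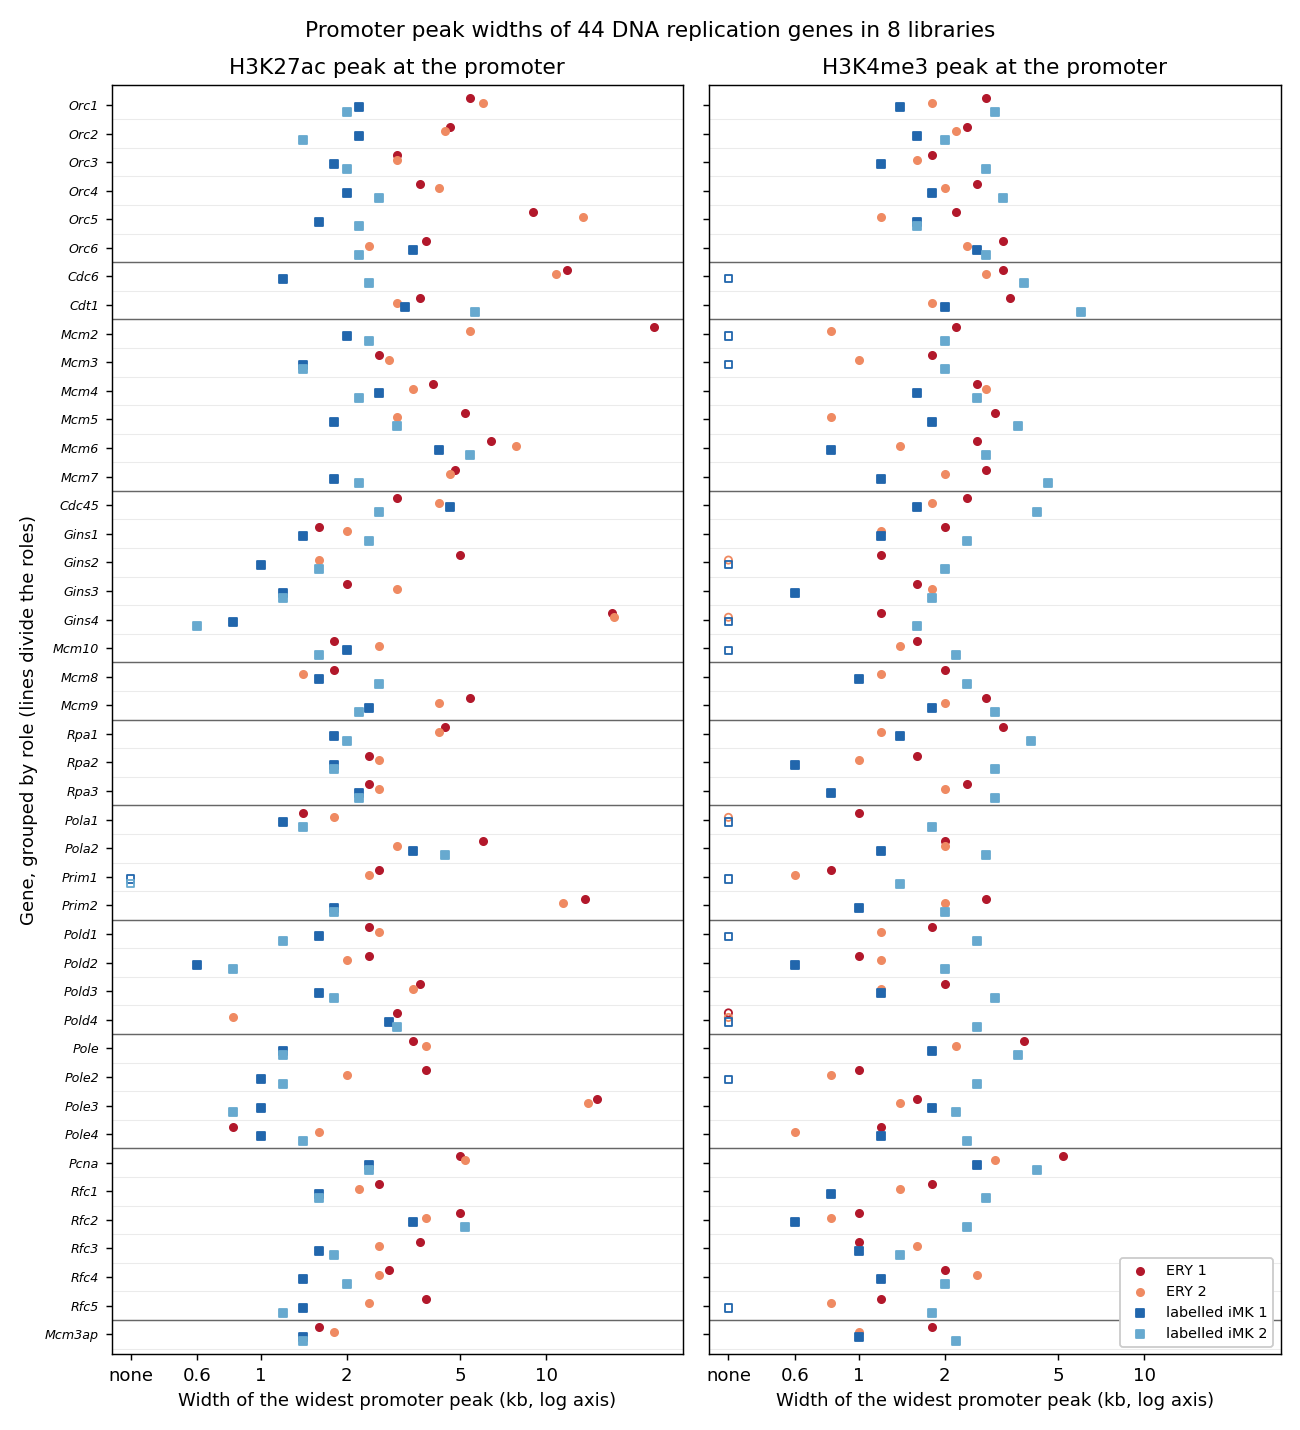
Width in kb, on a log axis, of the widest H3K27ac (left) and H3K4me3 (right) promoter peak of each of the 44 genes in each library, with open symbols at "none" where no peak was called. In H3K27ac the ERY circles lie to the right of the squares of the libraries labelled iMK for 30 genes, whereas in H3K4me3 ERY replicate 1 lies right of ERY replicate 2 at 34 of 40 genes and iMK replicate 2 right of iMK replicate 1 at 31 of 32.

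A second measure, the percent of a gene body with 10 kb on each side that was covered by peaks, takes in enhancers near and inside the gene. By that measure 13 of the 44 members were higher in ERY for H3K27ac (22.0% of 14467 genes were) and 1 was higher in iMK (17.2%). The median difference was 3.30 percentage points over the members and 0.60 over all genes. The sets are unlike: the 14467 genes needed a peak in only 1 library. The promoter was called in all 4 libraries for 43 of the 44 members and for 7897 genes. Both ERY values exceeded both iMK values for 25 members (41.1% of all genes) and lay below both for 7 (31.3%). The split of 13 against 1 became 13 against 6 under quantile normalization, where 23.2% of all genes were higher in ERY and 21.6% in iMK. Prim1, Cdc45 and Orc3 lost their calls there, so the 13 were in part other members. With peaks of at least 3-fold over control the split became 7 against 4, beside 10.1% and 17.1% of all genes. This filter kept 5 of the 14 calls and not the 1 higher in iMK, so the 4 were other members. The ERY lists had a median fold of 3.06 and 2.77 before it, against 5.79 and 5.65 in iMK. Under the filter the median of all genes was -0.64. Without iMK replicate 1 and without iMK replicate 2, 6 and 5 members were higher in ERY (6.44% and 6.57% of all genes), and without ERY replicate 1, 8 were (17.4%). Rfc1, the 1 member higher in iMK, no longer passed without ERY replicate 1 or without ERY replicate 2. Of the 14 members that passed, Cdc45 lost its call in 8 of 10 alternatives, Orc4 in 7, Orc3 in 6, and Cdc6, Prim1 and Pold3 in 5 each.

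**Figure D3:**
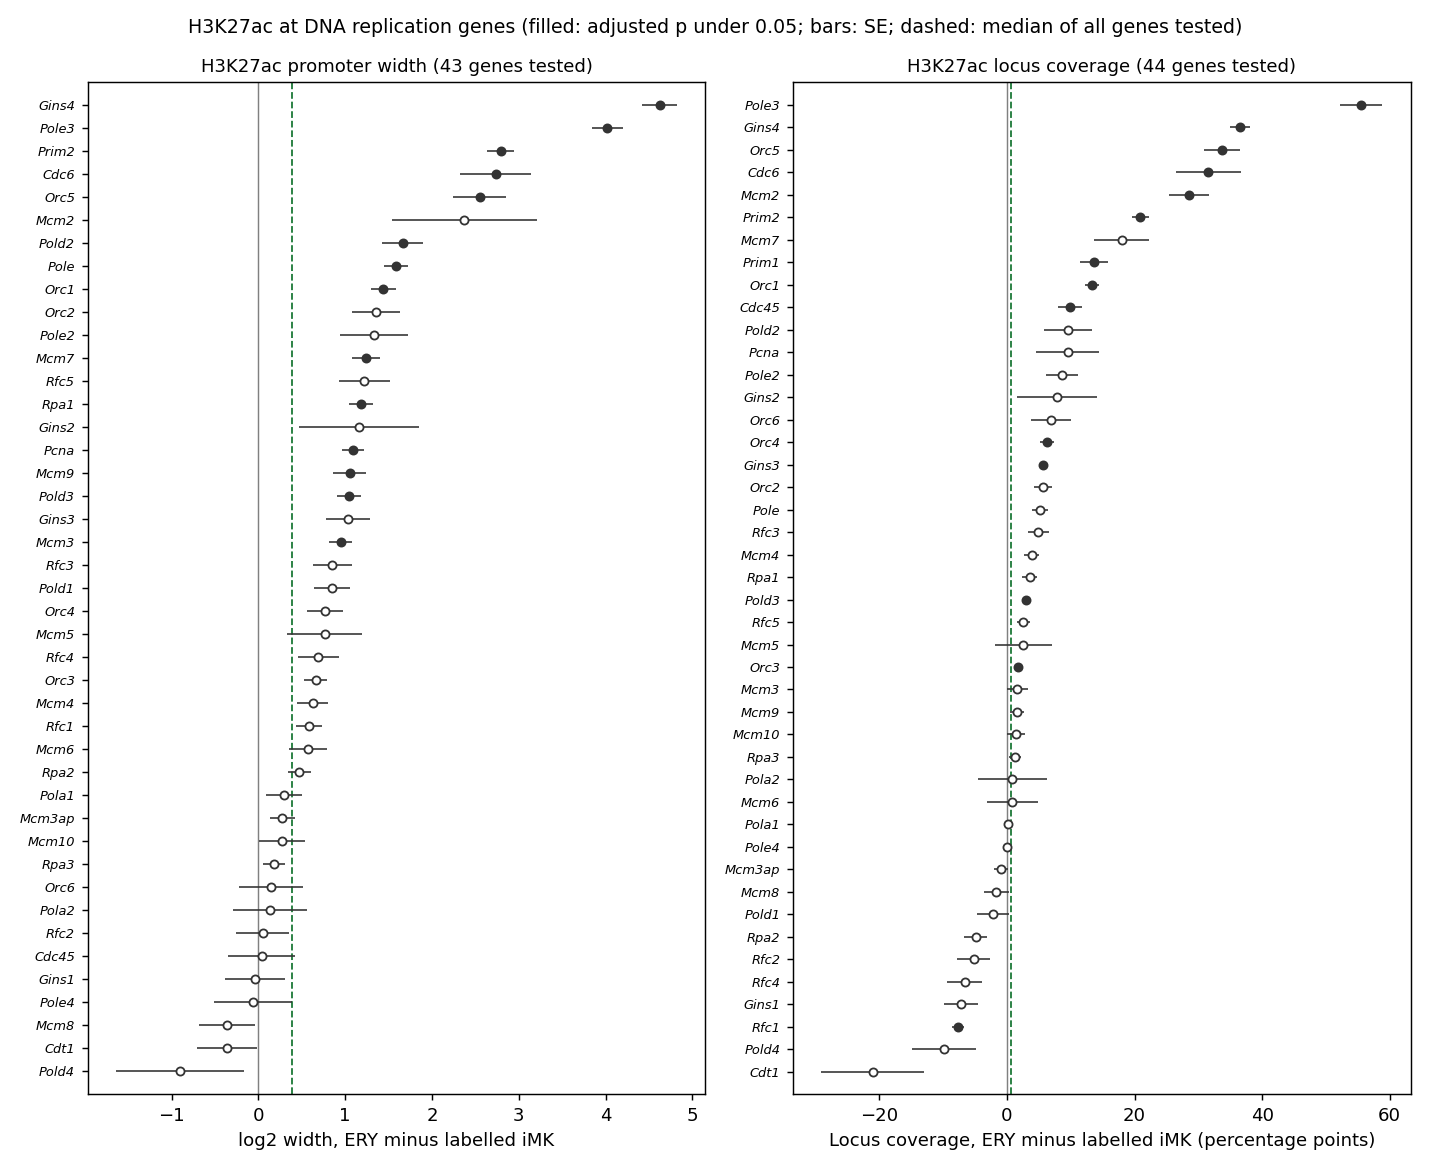
ERY minus iMK difference in H3K27ac for each gene, as log2 promoter peak width (left, 43 genes) and as locus coverage in percentage points (right, 44 genes), with limma's standard error as bars, filled points for an adjusted p under 0.05 and a dashed line at the median of all genes tested. Gins4 and Pole3 lie farthest right in width at 4.63 and 4.02, and Cdt1 lies farthest left in coverage at -21.05.

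Among the origin recognition genes, 4 of 6 passed in H3K27ac coverage and 2 in width, all higher in ERY. Orc5 encodes an ATP-binding subunit of the complex. Its promoter peak measured 9000 and 13400 bp in ERY and 1600 and 2200 bp in the libraries labelled iMK, so the groups did not overlap. The difference was 2.55 ± 0.31 on the log2 scale (SE, adjusted p = 0.023), and locus coverage was 34.1% and 40.0% against 4.05% and 2.62% (33.71 ± 2.82 percentage points, SE, adjusted p = 0.0089). The coverage difference ran from 22.16 to 36.69 over the alternatives and did not pass without either iMK replicate. The ERY peaks reached 6574 and 9974 bp into the gene. Orc1, the largest subunit of the complex, had peaks of 5400 and 6000 bp against 2200 and 2000 bp (1.44 ± 0.15 on the log2 scale, SE, adjusted p = 0.019). Its locus was covered by 20.9% and 20.6% in ERY and by 7.58% and 7.22% in iMK (adjusted p = 0.0091). Orc1 starts 118 bp from Prpf38a, a splicing factor gene read the other way, whose start lay inside every one of these peaks. Orc4 coverage was 8.60% and 10.7% against 2.97% and 3.85% (adjusted p = 0.031), which did not hold with any 1 library left out (adjusted p up to 0.17). Orc3 passed with the smallest difference of the 14 and did not pass without ERY replicate 1 or without ERY replicate 2 (adjusted p up to 0.12 over its alternatives). Orc2 and Orc6 passed neither test, Orc2 with an adjusted p of 0.054 in width and 0.057 in coverage.

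Of the 2 licensing factors, Cdc6 passed in both measures and Cdt1 in neither, and the difference between them was not tested. Cdc6, the ATPase that loads the helicase, had ERY peaks of 11800 and 10800 bp against 1200 and 2400 bp, with no overlap between the groups (2.73 ± 0.41 on the log2 scale, SE, adjusted p = 0.032). Its locus was covered by 50.9% and 39.9% in ERY and by 11.6% and 16.1% in iMK (31.54 ± 5.08 percentage points, SE, adjusted p = 0.025). Cdt1, the partner of Cdc6 in loading, had peaks of 3600 and 3000 bp in ERY and 3200 and 5600 bp in iMK, which overlapped (adjusted p = 0.49). Its coverage was 27.4% and 12.5% in ERY and 34.4% and 47.5% in iMK, a difference of -21.05 ± 8.10 percentage points (SE) that did not pass (adjusted p = 0.13).

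The 6 subunits of the MCM2-7 helicase all had a positive width difference, and 2 of them, Mcm7 and Mcm3, passed. Both lost this call under quantile normalization. Mcm7 peaks measured 4800 and 4600 bp in ERY against 1800 and 2200 bp in iMK (1.24 ± 0.17 on the log2 scale, SE, adjusted p = 0.028). Its coverage of 36.6% and 27.3% against 12.2% and 15.8% narrowly missed the threshold (adjusted p = 0.054). Mcm3 peaks were 2600 and 2800 bp against 1400 bp in both iMK libraries (adjusted p = 0.028), while its coverage overlapped between the groups (6.96% and 7.50% against 3.75% and 7.50%). Mcm2 passed in coverage alone, with 50.9% and 45.3% in ERY against 18.7% and 20.4% in iMK (28.55 ± 3.09 percentage points, SE, adjusted p = 0.013). It did not pass without either iMK replicate (adjusted p = 0.10 and 0.098), and with peaks of at least 3-fold over control its difference was 7.34 (adjusted p = 0.63). Its widest promoter peak was 23800 bp in ERY replicate 1, the widest at any of the 44 genes in any library, but 5400 bp in ERY replicate 2, and 2000 and 2400 bp in iMK, so that the width test gave an adjusted p of 0.14. The long peak ran 21420 bp upstream and took in the start of the neighbouring gene Tpra1. Mcm4 (4000 and 3400 bp against 2600 and 2200 bp) and Mcm6 (6400 and 7800 bp against 4200 and 5400 bp) did not overlap between the groups in width and did not pass. Mcm6 had the widest H3K27ac peaks of the 6 in the libraries labelled iMK. Mcm5 peaks were 5200 and 3000 bp against 1800 and 3000 bp, and the 3000 bp peak of iMK replicate 2 lay at an inner start, where 1600 bp was the width at the principal start.

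Of the 6 helicase activators, Gins4, Gins3 and Cdc45 passed in coverage and Gins4 in width. Gins4, a subunit of the GINS ring, had the largest width difference of the list: 17000 and 17200 bp in ERY against 800 and 600 bp in iMK (4.63 ± 0.20 on the log2 scale, SE, adjusted p = 0.012). The ERY peaks started 1858 and 2258 bp inside the gene and ran 15141 and 14941 bp upstream, over the start of Golga7, a Golgi protein gene. Coverage was 38.2% and 39.5% against 2.58% and 1.93% (36.59 ± 1.56 percentage points, SE, adjusted p = 0.0065). Gins3 coverage was 9.49% in both ERY libraries and 3.80% in both labelled iMK (adjusted p = 0.014). It did not pass with equal numbers of top peaks or with peaks of at least 3-fold over control (adjusted p up to 0.14). Cdc45, the cofactor that joins MCM and GINS into the active helicase, was covered by 16.3% and 17.5% against 8.93% and 5.05% (adjusted p = 0.035), which did not pass with any 1 library left out and had a difference of 3.10 with peaks of at least 3-fold over control (adjusted p = 0.42), while its promoter peaks overlapped in width (3000 and 4200 bp against 4600 and 2600 bp). Gins1, Gins2 and Mcm10 passed neither test. Mcm8 and Mcm9 encode a related helicase of DNA repair, and neither passed in coverage. Mcm9 passed in width, with 5400 and 4200 bp against 2400 and 2200 bp, but in all 4 libraries this peak lay at an inner start of Mcm9, beside the start of Asf1a, a histone chaperone gene. At the principal start of Mcm9 the widths were 1800 and 1000 bp against 1000 and 1600 bp, and the groups overlapped (adjusted p = 0.91).

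**Figure D4:**
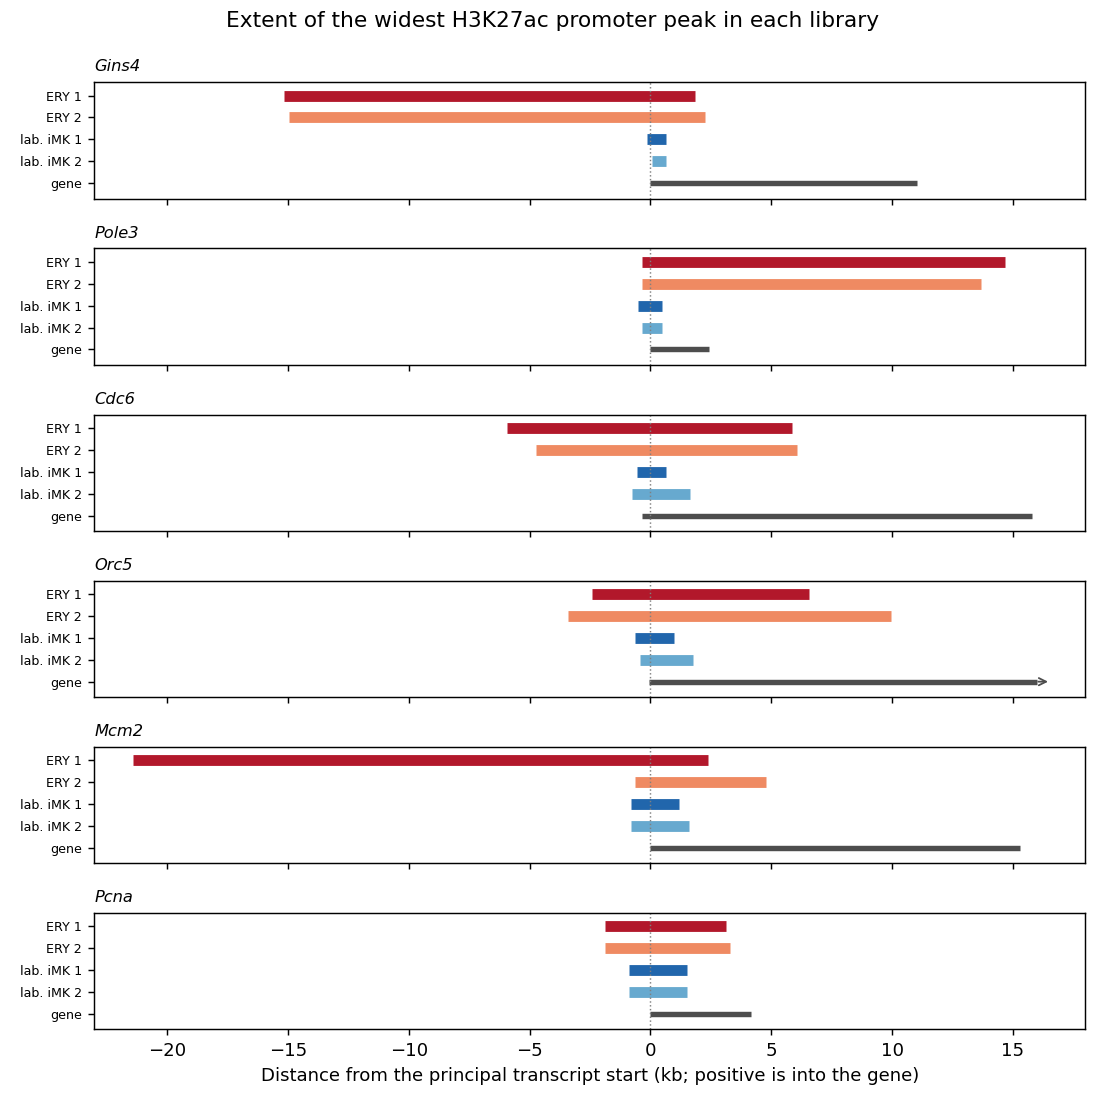
Extent of the widest H3K27ac promoter peak around the principal transcript start (0, in kb, positive into the gene) in each library for 6 genes, with the gene drawn in grey and an arrow where it goes on. The ERY bars of Gins4 reach 15141 and 14941 bp upstream and those of Pole3 reach 14667 and 13667 bp downstream, whereas the bars of the libraries labelled iMK stay near the start.

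Another very wide domain lay at a subunit of polymerase epsilon. Pole3, a small histone-fold subunit of polymerase epsilon, had peaks of 15000 and 14000 bp in ERY against 1000 and 800 bp in iMK (4.02 ± 0.18 on the log2 scale, SE, adjusted p = 0.012). Its locus was covered by 67.6% and 61.3% against 8.03% and 9.81%, the largest coverage difference of the list (55.54 ± 3.31 percentage points, SE, adjusted p = 0.0065). This difference ran from 39.05 to 64.02 over the alternatives and did not pass without either iMK replicate. The ERY peaks covered the whole gene and went on over the start of Alad, which encodes an enzyme of heme synthesis, so that 1 called domain spanned both genes. Pole, the catalytic subunit, had peaks of 3400 and 3800 bp against 1200 bp in both iMK libraries (1.58 ± 0.14 on the log2 scale, SE, adjusted p = 0.015). Pole4, the histone-fold partner of Pole3, had the lowest mean width of the members called in every library: 800 and 1600 bp against 1000 and 1400 bp, with full overlap. Pole2 passed neither test (adjusted p = 0.099 in width).

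Of the polymerase delta genes, Pold2 and Pold3 passed in width and Pold3 also in coverage. Pold2, the second subunit, had narrow peaks of 2400 and 2000 bp against 600 and 800 bp (1.66 ± 0.23 on the log2 scale, SE, adjusted p = 0.029). Pold1, the catalytic subunit, had peaks of 2400 and 2600 bp against 1600 and 1200 bp and did not pass (adjusted p = 0.072). Pold4 peaks overlapped (3000 and 800 bp against 2800 and 3000 bp).

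Primase and polymerase alpha showed 2 genes higher in ERY coverage. Prim1 coverage was 22.5% and 21.9% against 10.9% and 6.31% (13.58 ± 2.18 percentage points, SE, adjusted p = 0.025), the latter from peaks away from its promoter. Prim2, the large primase subunit, was covered by 24.6% and 24.1% against 2.54% and 4.24% (20.93 ± 1.31 percentage points, SE, adjusted p = 0.0067), and it and Gins4 passed in coverage under every one of 10 alternatives. The widest Prim2 promoter peaks of ERY, 13600 and 11400 bp, lay at inner starts and reached 47794 and 47994 bp into the gene. At the principal start the widths were 2000 and 5400 bp against 1800 bp in both iMK libraries, which did not pass (adjusted p = 0.34). Pola1, the catalytic subunit of polymerase alpha on chromosome X, had peaks of 1400 and 1800 bp against 1200 and 1400 bp, and Pola2, its partner, 6000 and 3000 bp against 3400 and 4400 bp. The iMK peaks of Pola2 also lay away from the principal start, where they measured 1000 and 1800 bp. Widths were also taken at the principal start of every gene, an alternative chosen after the data were seen. Of the 14 width calls, 12 were kept there, Prim2 and Mcm9 being the pair lost. The median width difference was then 0.85 on the log2 scale over the members and 0.36 over all genes tested.

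Of the 6 clamp and loader genes, 0 passed with higher coverage in ERY, 1 passed with higher coverage in iMK and 1 passed in width. Pcna, the sliding clamp, had peaks of 5000 and 5200 bp in ERY and 2400 bp in both iMK libraries, which did not overlap (1.09 ± 0.13 on the log2 scale, SE, adjusted p = 0.022). Its coverage of 38.6% and 28.6% against 21.2% and 26.97% did not pass (adjusted p = 0.22). Rfc1, the large loader subunit, was covered by 4.48% and 4.05% in ERY and 12.4% and 11.5% in iMK, a difference of -7.67 ± 0.87 percentage points (SE, adjusted p = 0.014). Its promoter peak was nonetheless wider in ERY in both libraries (2600 and 2200 bp against 1600 bp in each) without passing (adjusted p = 0.083), so the iMK coverage lay away from the promoter. Rfc2, Rfc3, Rfc4 and Rfc5 passed neither test. Of the single-strand binding genes, Rpa1 passed in width with 4400 and 4200 bp against 1800 and 2000 bp (1.18 ± 0.14 on the log2 scale, SE, adjusted p = 0.022), and Rpa2 and Rpa3 passed neither test. Mcm3ap passed neither.

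In H3K4me3 the 2 libraries of a cell type differed widely from each other. The promoter was called in all 4 libraries for 32 of the 44 members (24.6% of all genes) and in part of them for 12 (23.8%), with 0 called in ERY alone (0.378%), 0 in iMK alone (4.89%) and 0 in no library (46.3%). Members called numbered 43 and 40 in ERY and 32 and 44 in the libraries labelled iMK, whereas all genes stood at 38.6% and 28.8% in ERY and 35.5% and 52.8% in iMK. ERY replicate 2 thus called fewer genes in all than iMK replicate 1 but more replication genes. Of the 40 members called in the other 3 libraries, 8 (20.0%) were missing in iMK replicate 1, against 12.9% of the 6200 genes so called.

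Those 8 belong to licensing, the helicase and its activation, primase, polymerases delta and epsilon, and the clamp loader. They were Cdc6 (3200 and 2800 bp in ERY and 3800 bp in iMK replicate 2), Mcm2 (2200, 800 and 2000 bp), Mcm3 (1800, 1000 and 2000 bp), Mcm10 (1600, 1400 and 2200 bp), Prim1 (800, 600 and 1400 bp), Pold1 (1800, 1200 and 2600 bp), Pole2 (1000, 800 and 2600 bp) and Rfc5 (1200, 800 and 1800 bp). Gins2, Gins4 and Pola1 were called in ERY replicate 1 and iMK replicate 2 alone, at 1200 and 2000 bp, 1200 and 1600 bp, and 1000 and 1800 bp. Pola1 is on the X chromosome, where the 4 lists held 177, 31, 39 and 350 H3K4me3 peaks in the order ERY 1, ERY 2, iMK 1 and iMK 2. Pold4, the smallest polymerase delta subunit, was called in iMK replicate 2 alone, at 2600 bp. So 11 of the 12 incomplete genes had a peak in at least 1 library of each cell type.

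H3K4me3 widths followed the library. ERY replicate 1 was wider than ERY replicate 2 at 34 of 40 members called in both (85.0%, and 81.0% of all genes), and iMK replicate 2 was wider than iMK replicate 1 at 31 of 32 (96.9%, and 97.2% of all genes). In limma 0 of 32 members passed in width and 0 of 44 in coverage, as did 0.0% of the 5398 and 13561 genes tested. At an unadjusted p under 0.05 there were 0 members in either, and 109 and 482 of all genes. Both ERY values exceeded both iMK values for 1 member in width (2.78% of all genes) and 2 in coverage (2.71%), and lay below both for 1 in width (14.1%) and 1 in coverage (20.4%). The median width difference over the members was 0.02 on the log2 scale, against -0.29 over all genes. It moved to -0.58 without iMK replicate 1 and to 0.55 without iMK replicate 2, so its direction rested on single libraries. The median of all genes moved with it, to -0.76 and 0.19. The members' median stood 0.18 to 0.36 above that of all genes in every alternative. The widest H3K4me3 peaks were those of Pcna (5200 and 3000 bp in ERY, 2600 and 4200 bp in iMK) and Cdt1 (3400 and 1800 bp, 2000 and 6000 bp). The narrowest of the 32 were those of Rfc2 (1000 and 800 bp, 600 and 2400 bp) and Pold2 (1000 and 1200 bp, 600 and 2000 bp). The widths overlapped at each of the other helicase genes. They were 2600 and 2800 bp against 1600 and 2600 bp at Mcm4, and 3000 and 800 bp against 1800 and 3600 bp at Mcm5. Mcm6 had 2600 and 1400 bp against 800 and 2800 bp, and Mcm7 had 2800 and 2000 bp against 1200 and 4600 bp. The 800 bp peak of Mcm5 in ERY replicate 2 lay at another annotated start, with none at the principal start. The same held for the Gins1 peak of 1200 bp in that library, and both genes count among the 32.

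The H3K4me3 peaks did not share the width of the very wide H3K27ac domains. At Pole3 they measured 1600 and 1400 bp in ERY and 1800 and 2200 bp in iMK, and at Orc5 2200 and 1200 bp against 1600 bp in each. At Gins4 the single ERY peak was 1200 bp, under H3K27ac peaks of 17000 and 17200 bp. Over the 40 members with both marks in all 4 ERY lists, the H3K27ac peak was wider on average than the H3K4me3 peak at 39 and equal at 1, with a median ratio of 1.94. Over the 32 with both marks in the iMK lists, H3K27ac was wider at 14, H3K4me3 at 15 and they were equal at 3, with a median ratio of 1.0. The H3K4me3 and H3K27ac lists were called on different libraries and these ratios were not tested. They were not taken over all genes. Over all called promoters of ERY, the median width was 2800 and 2600 bp in H3K27ac against 1800 and 1400 bp in H3K4me3. In the libraries labelled iMK it was 1800 and 2000 bp against 1400 and 2600 bp, so the contrast between the cell types was not particular to the members.

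The enrichment of the member peaks was close to that of other promoters. The median fold over control, as given by the authors, was 4.65 and 3.55 at members in the ERY H3K27ac libraries and 10.1 and 8.98 in those labelled iMK, against 4.86, 3.71, 10.3 and 9.06 over all called promoters. The median member peak reached 1207 and 979 bp upstream and 2003 and 2029 bp downstream of the start in ERY, and 635 and 696 bp and 1046 and 1101 bp in iMK. In all called promoters these distances were 902 and 880 bp and 1613 and 1536 bp in ERY, and 699 and 774 bp and 1083 and 1181 bp in iMK. The start of another gene lay within the peak of 17 and 14 of 44 members in ERY, against 28.4% and 27.96% of all called promoters. Between principal transcript starts, 12 members (27.3%) have a partner gene read the other way whose start lies within 1 kb, against 9.37% of all genes: Orc1, Orc3, Orc6, Mcm4, Mcm7, Cdc45, Mcm8, Rpa1, Rpa3, Pole, Pole3 and Mcm3ap. Mcm7 overlaps its partner Ap4m1 by 420 bp, and the others overlap by at most 187 bp. A peak at such a start cannot be assigned to 1 of the genes.

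Other genes of replication and its control, a list of 52, were read in the same way. All but 1 had the H3K27ac promoter call in all 4 libraries and 50 had the H3K4me3 call, against 36.0% and 24.6% of all genes. In H3K27ac coverage 17 of 52 were higher in ERY (22.0% of all genes tested) and 1 in iMK (17.2%). This 1, Rbl1, a relative of the retinoblastoma protein, was covered by 10.3% in ERY against 17.3% in iMK on average (adjusted p = 0.025). The median difference of the list was 5.60 percentage points, against 0.60 over all genes tested, many of which lack the promoter call. In width 20 of 51 were wider in ERY (18.5% of all genes) and 0 in iMK (2.6%). The 4 largest coverage differences were those of Wdhd1, which tethers polymerase alpha to the helicase (67.1% in ERY against 4.83% in iMK, 62.26 ± 2.83, SE, adjusted p = 0.0065), E2f4 (62.7% against 10.1%, 52.58 ± 3.30, SE, adjusted p = 0.0067), Tk1, the thymidine kinase (83.6% against 34.7%, 48.96 ± 7.66, SE, adjusted p = 0.024), and Rrm2, a ribonucleotide reductase subunit (60.1% against 11.6%, 48.53 ± 3.25, SE, adjusted p = 0.0070). In H3K4me3 0 of 52 passed in coverage and 0 of 50 in width in limma, with 0 and 2 at an unadjusted p under 0.05.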

How the data were processed

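The series holds 18 samples, of which 8 ChIP-seq libraries have a peak list and 10 inputs (no antibody) were not used. Groups came from the submitters' labels. The labels do not say whether replicates are separate animals. The study's methods call them biological, from other groups of mice or other sorted portions of the same mice, so p-values measure the spread between these libraries. Bowtie 1.0.0, SICER 1.1 and mm10 are the tools and build in the submitters' processing notes. Peaks were called in each library, their edges fell on multiples of 200 bp, and a peak made of joined windows can hold several elements. The authors' lists give every peak a fold, which is its ratio over control. The deposited p-value and q-value of each peak were used at most to rank peaks. Widths and coverage depend on the depth and background of a library, which the lists do not hold, so no interval is given.

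Genes were those of GENCODE vM21 on GRCm38 (mm10), counted from 1. A promoter was any annotated start with 1 kb on each side, called when a peak shared at least 1 bp, and its width was that of its widest peak. Locus coverage was the percent under peaks of the gene with 10 kb at either end, so neighbours share peaks. limma 3.58.1 (R 4.3.3) with a trend compared ERY with iMK per mark over all genes, in coverage for genes covered in at least 1 library and in log2 width for genes called in all 4, with Benjamini-Hochberg adjustment over all genes. Calls were made at 0.05, and differences are given as ERY minus iMK. The scripts were tested on simulated data. An exact permutation test of 2 against 2 cannot give a two-sided p under 0.333 and was not used. Alternatives were each library left out, quantile normalization, no trend, no filter, a flank of 2 kb, peaks of at least 3-fold, equal numbers of top peaks, summed widths, and for promoter calls windows of 2.5 kb or 500 bp, an overlap of 200 bp or the outermost start alone.

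The members and lists were chosen with earlier results of these data known, and 1 listed marker gene is not reported here. Values were printed for members not called in all 4 libraries of a mark, the 12 with the largest differences past the threshold in each fit, the 2 widest and 2 narrowest peaks per mark (ties included), Mcm2 to Mcm7 and Pcna, and up to 4 genes a direction of the wider list. Where the report gives values for other members (Pold1, Pold4, Pola2), they were added after the values were seen. Counting, tables and plots used Python 3.11.15 with pandas 2.3.3, numpy 2.4.6 and matplotlib 3.10.9.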

Additional observations from a re-analysis of the deposited data

How the results depend on the processing

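Of 28 calls of members in H3K27ac, counted once per measure, none changed direction under any alternative run, but many no longer passed. Quantile normalization kept 18 of the 28, and peaks of at least 3-fold over control kept 5 of the 14 coverage calls. With any 1 library left out, most of the 28 were lost. The ERY coverage calls of Prim1, Cdc6, Cdc45, Orc4, Orc3 and Pold3 were lost without ERY replicate 1 and also without ERY replicate 2. The members higher in ERY in those fits were therefore in part others, and their number does not show how many calls were kept. With peaks of at least 3-fold over control, 7 members were higher in ERY and 4 in iMK in H3K27ac coverage, and under quantile normalization 6 were higher in iMK. Quantile normalization left 7 of 14 width calls. Leaving out each library in turn gave 5 to 11 members higher in ERY and 0 to 1 higher in iMK in H3K27ac coverage, and 0 wider in ERY in H3K27ac width in each case. Members called in H3K4me3 in ERY alone numbered 7 with lists cut to equal numbers of peaks (2.48% of all genes) and 0 to 8 with a library left out, the 8 without iMK replicate 2 (4.03%), and those called in iMK alone 0 to 1, the 1 without iMK replicate 1 (14.9%).

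The median H3K27ac width difference of the members stood 0.35 to 0.49 above that of all genes on the log2 scale in every alternative, also under quantile normalization. The H3K4me3 median width difference stood 0.18 to 0.36 above that of all genes in every alternative. The H3K4me3 median coverage difference was -0.31 percentage points and ran from -2.44 to 1.92 with a library left out. Its distance from the median of all genes was 1.37 to 1.66 with a library left out and -0.18 with no filter. No paired analysis was possible because the labels number no replicates. With 2 libraries a group and no depth in the lists, a difference that did not pass is not shown to be absent, and a missing peak may lie just under the authors' threshold.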
